A study of Mus musculus with 8 samples.

Results

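Periostin (Postn) and 7 further genes of matricellular proteins, Tgfbi, Tnn, Tnc, Thbs1, Thbs2, Thbs3 and Sparc, were followed through the cell types of the mouse periosteum on a normal diet (ND) and a high-fat diet (HFD). They were chosen by symbol and are 8 of the 32285 genes in the count matrices. Periosteal cells of the left femur and tibia of male C57BL/6J mice, 16 weeks old, were released with collagenase and dispase and read by 3′ droplet single-cell RNA sequencing. Counts are of unique molecular identifiers (UMIs), so each stands for 1 captured RNA molecule. The labels name 4 samples per diet, but the counts came as 1 pooled matrix per diet and no barcode could be traced to an animal. There was thus 1 library per diet and no replicate, no test between diets was possible, and diet cannot be told apart from other differences between the 2 preparations. The labels separate the groups by diet (normal chow or high-fat diet) and name no altered allele in either.

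The ND library held 48558889 UMIs in 6314 barcodes and the HFD library 49940976 UMIs in 6636 barcodes, and 15 barcode sequences occurred in both. Cells with more than 500 and fewer than 8000 genes and under 20% mitochondrial UMIs were kept, 6029 in ND and 6224 in HFD. The largest class was neutrophil-like (2404 and 2427 cells), followed by B cell-like (1515 and 1475). Clusters took a cell type's name, written with -like, from lists of markers, and the 8 genes were left out of the features used for clustering. All 8 listed mesenchymal markers were read in both libraries in mesenchymal-like cells, but also in neutrophil-like cells. Their sum per 1000000 UMIs was 30531 (ND) and 36149 (HFD) in mesenchymal-like and 139.7 and 229 in neutrophil-like cells. Mesenchymal-like cells numbered 408 and 671, or 6.77% and 10.8% of kept cells. They comprised tenocyte-like (96 and 161 cells), Ccl11 fibroblast-like (95 and 157), fibroblast progenitor-like (92 and 111), osteoblast-like (58 and 128) and chondrocyte-like cells (7 and 15) and 3 small unnamed subclusters. Levels are UMIs per 1000000 UMIs of the class (UPM), given for ND and then HFD. Intervals in parentheses are exact 95% intervals and cover counting error only. They do not cover the spread between mice or, for levels and ratios, the spread between cells.

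Matricellular proteins are secreted into the extracellular matrix, where they modulate adhesion, growth factor activity and collagen assembly. Periostin, named after the periosteum, and its paralog transforming growth factor beta-induced protein (Tgfbi) share FAS1 domains. Tenascin C (Tnc) and tenascin W (Tnn) are large glycoproteins of remodelling connective tissue and bone. Thrombospondins 1 and 2 (Thbs1, Thbs2) are trimers known to restrain angiogenesis, and thrombospondin 3 (Thbs3) is a pentamer related to cartilage oligomeric matrix protein. Sparc, or osteonectin, binds collagen and calcium and is abundant in bone.

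In the mm10 (GRCm38) build Postn spans chr3:54361109-54391037 and Thbs3 chr3:89215180-89226837, both on the plus strand. Tgfbi spans chr13:56609523-56639562 and Thbs1 chr2:118111876-118127133, also on the plus strand. On the minus strand lie Tnn at chr1:160085029-160153580, Tnc at chr4:63959785-64047015, Thbs2 at chr17:14665500-14694235 and Sparc at chr11:55394500-55423183. Thbs3 overlaps Mtx1, and Thbs1 and Tnc overlap noncoding genes, in each case on the other strand.

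Promoter sequences are shown for Postn and Tnc, which were highest in the same subcluster, and for Tgfbi, the paralog of Postn, which was highest elsewhere. Each is the 250 bases before a RefSeq start site (GRCm38.p6), read 5′ to 3′ along the gene. Capitals mark TATATAA, letters of a TATA box, and GGGCGG, letters of a GC box, searched on both strands. The Postn window (chr3:54360857-54361106, plus strand) held TATATAA beginning 28 bases before the start. The Tnc window (chr4:64046937-64047186, minus strand) held TATATAA 29 bases before the start and also GGGCGG. The Tgfbi window (chr13:56609336-56609585, plus strand) held GGGCGG alone. Tnn and Thbs2 were also highest in osteoblast-like cells, and their windows, not shown, held neither sequence. Sparc was second highest in osteoblast-like cells among the named subclusters, after the few chondrocyte-like cells, and its window held neither as well. The RefSeq start of Sparc lies 3103 bases from the gene start given above, so its window lay within the gene. TATATAA was thus not found for all genes of the osteoblast-like pattern. Of 32851 windows of this length 3.04% held TATATAA and 32.7% GGGCGG. Postn and Tnc each have a second RefSeq start, in whose window TATATAA was not found, and the matches describe letters only. For Tnc that second start is the gene start given above, and the start of the window shown lies 79 bases within the gene.
Postn: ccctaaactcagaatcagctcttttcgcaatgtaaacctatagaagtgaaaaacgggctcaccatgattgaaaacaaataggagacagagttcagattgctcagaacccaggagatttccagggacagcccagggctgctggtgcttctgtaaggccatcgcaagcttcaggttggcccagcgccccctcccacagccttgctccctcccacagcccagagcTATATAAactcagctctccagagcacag
Tnc: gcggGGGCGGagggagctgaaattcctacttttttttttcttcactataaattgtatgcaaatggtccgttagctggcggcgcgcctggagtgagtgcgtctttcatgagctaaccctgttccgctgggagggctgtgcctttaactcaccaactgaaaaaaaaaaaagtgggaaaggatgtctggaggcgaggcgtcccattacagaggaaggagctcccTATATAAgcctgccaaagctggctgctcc
Tgfbi: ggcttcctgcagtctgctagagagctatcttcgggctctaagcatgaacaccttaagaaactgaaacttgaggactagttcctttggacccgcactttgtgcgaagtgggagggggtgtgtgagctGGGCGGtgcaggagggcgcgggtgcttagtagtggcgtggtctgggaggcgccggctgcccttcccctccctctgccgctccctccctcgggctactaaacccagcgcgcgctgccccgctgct

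Postn, Tnn, Tnc, Thbs2, Thbs3 and Sparc were read mostly in mesenchymal-like cells, and Tgfbi and Thbs1 mostly in myeloid cells. Mesenchymal-like cells held 97.5% and 97.3% of all Postn UMIs in ND and HFD. They held 98.1% and 97.6% of Tnn, 96.5% and 94.1% of Tnc and 96.0% and 96.5% of Thbs2 UMIs. Thbs3 (91.7% and 93.0%) and Sparc (90.0% and 92.9%) followed. The same cells held 13.7% and 20.6% of Tgfbi UMIs and 4.33% and 4.93% of Thbs1 UMIs.

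**Figure D1:**
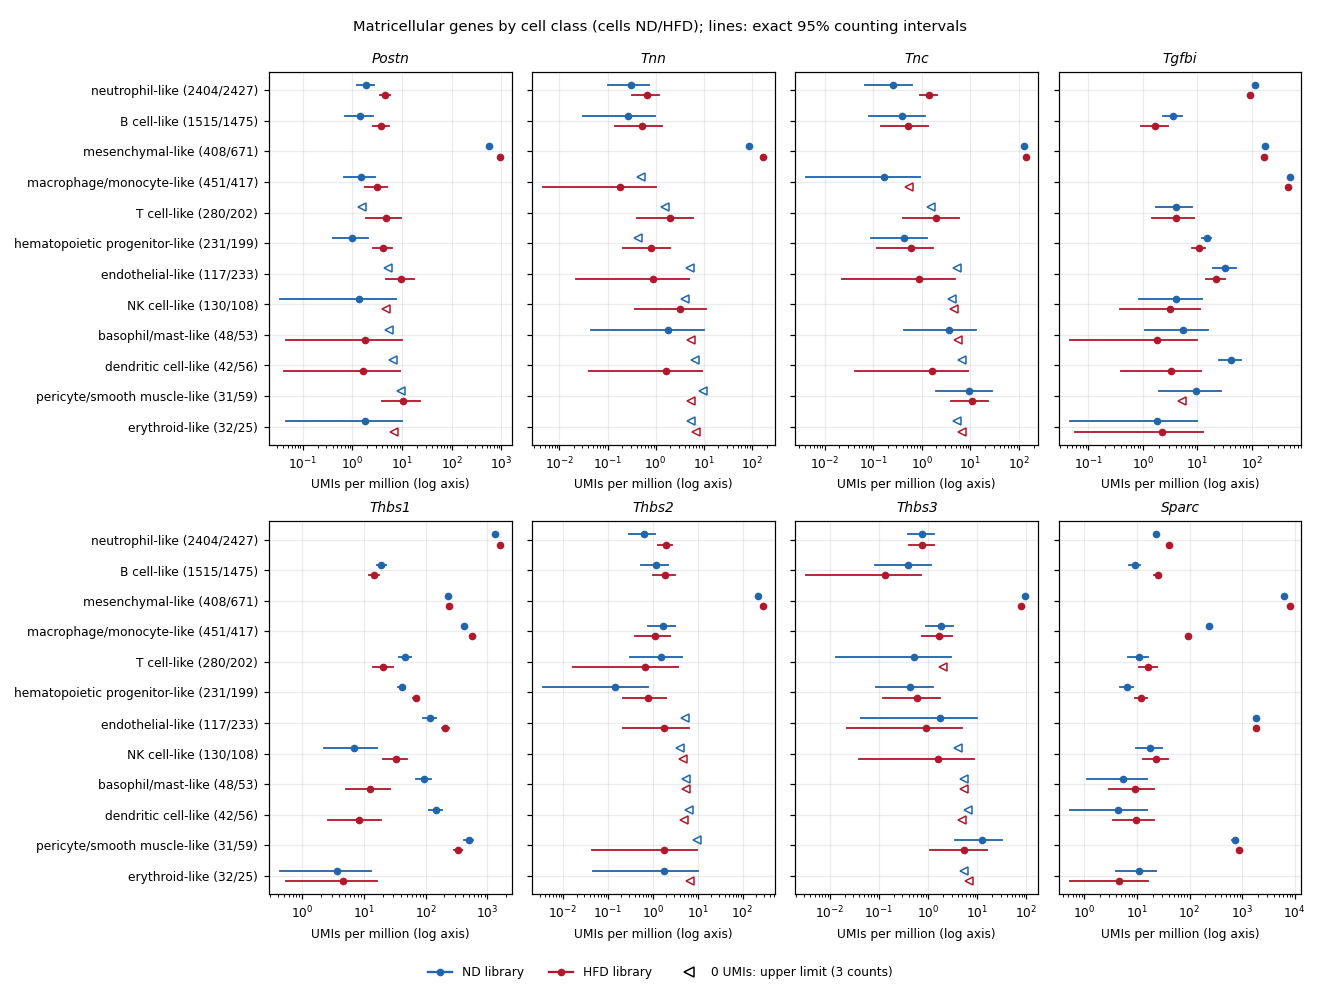
Level of each gene (UMIs per 1000000 UMIs of the class, log axis) in the named cell classes of the ND (blue) and HFD (red) library, with exact 95% counting intervals as lines and open triangles at the upper limit where no UMI was read. Postn, Tnn, Tnc, Thbs2 and Thbs3 stand apart in mesenchymal-like cells, Thbs1 is highest in neutrophil-like cells (1303 and 1619.6 UPM) and Tgfbi in macrophage/monocyte-like cells (496 and 470.2 UPM).

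Postn was read above all in osteoblast-like cells. Its level there was 4574 UPM (4395 to 4758) in ND and 5116 UPM (4983 to 5251) in HFD, from 2475 and 5640 UMIs. All other mesenchymal-like cells had 54.8 and 164 UPM, so that osteoblast-like cells were 83.3-fold higher in ND and 31.2-fold higher in HFD. Tenocyte-like cells came next with 94.0 UPM (77.1 to 114) in ND and 403 UPM (373 to 434) in HFD. Fibroblast progenitor-like cells had 34.8 and 45.6 UPM and Ccl11 fibroblast-like cells 22.4 and 82.0 UPM, an order that turned between the libraries, with overlapping intervals in ND. The turn rested on 1 HFD Ccl11 fibroblast-like cell, which held 81 of 138 UMIs. Without that cell the HFD level of Ccl11 fibroblast-like cells was 34.5 UPM. Chondrocyte-like cells had 0 Postn UMIs in ND, which allows up to 32.0 UPM, and 60.8 UPM in HFD. The 8 osteoblast markers summed to 15976 and 20263 UPM in osteoblast-like cells, with Phex at 0 in ND. Chondrocyte-like cells had sums of 25649.5 and 8586 UPM, of which Ibsp, or bone sialoprotein, gave 19972 and 8349, with Dmp1 and Phex at 0, so the sum did not set osteoblast-like apart from chondrocyte-like cells in ND. The other named subclusters had at most 1325 UPM.

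Within osteoblast-like cells Postn was widespread and uneven. The median cell had 3397 UPM in ND, with quartiles of 1173 and 6217 UPM. In HFD the median was 3751 UPM, with quartiles of 1496 and 6348 UPM. The 6 ND cells with the highest counts held 51.7% of the UMIs and the top 13 HFD cells 44.6%. After each cell was thinned to 1000 UMIs, 74.1% of ND (61.0 to 84.7) and 76.2% of HFD osteoblast-like cells (67.8 to 83.3) had a Postn UMI, and unthinned 86.2% and 85.9%. Thinning left out 2 shallower osteoblast-like cells of the HFD library and none of the ND library. B cell-like cells, a type that should not express Postn, gave thinned shares of 0.198% and 0.543%. Median depths were 7785 and 7238 UMIs in osteoblast-like and 3885 and 3822 in B cell-like cells.

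Both tenascins shared this place. Tnn was at 745 UPM (674 to 821) in ND and 885 UPM (831 to 943) in HFD in osteoblast-like cells. Tenocyte-like cells had 13.2 and 15.6 UPM, where 1 cell held 13 of 15 ND UMIs and 1 cell 11 of 26 HFD UMIs. Fibroblast progenitor-like and Ccl11 fibroblast-like cells had no Tnn UMI in ND and 2 and 1 in HFD. Chondrocyte-like cells had 0 in ND (7 cells) and 130 in HFD (15 cells), of which 1 cell held 47. Tnc was at 724 UPM (654 to 799.8) in ND and 698 UPM (649 to 749) in HFD in osteoblast-like cells, 14.4-fold and 20.3-fold above the other mesenchymal-like cells. Tenocyte-like cells were second for Tnc among the named subclusters (68.5 and 80.4 UPM).

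Thbs2 was divided between osteoblast-like and tenocyte-like cells. It was at 719 UPM (649 to 794) in ND and 971 UPM (913 to 1030.5) in HFD in osteoblast-like cells and at 289 and 286 UPM in tenocyte-like cells. Ccl11 fibroblast-like (115 and 111 UPM) and fibroblast progenitor-like cells (56.8 and 52.5 UPM) were lower, and the intervals of these 4 subclusters did not overlap within either library. Thbs3 had another order. Among subclusters of over 50 cells per library it was highest in Ccl11 fibroblast-like (145 and 112 UPM) and fibroblast progenitor-like cells (129.7 and 120.2 UPM), whose intervals overlapped, and lower in osteoblast-like (75.8 and 53.5 UPM) and tenocyte-like cells (20.2 and 36.0 UPM).

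**Figure D2:**
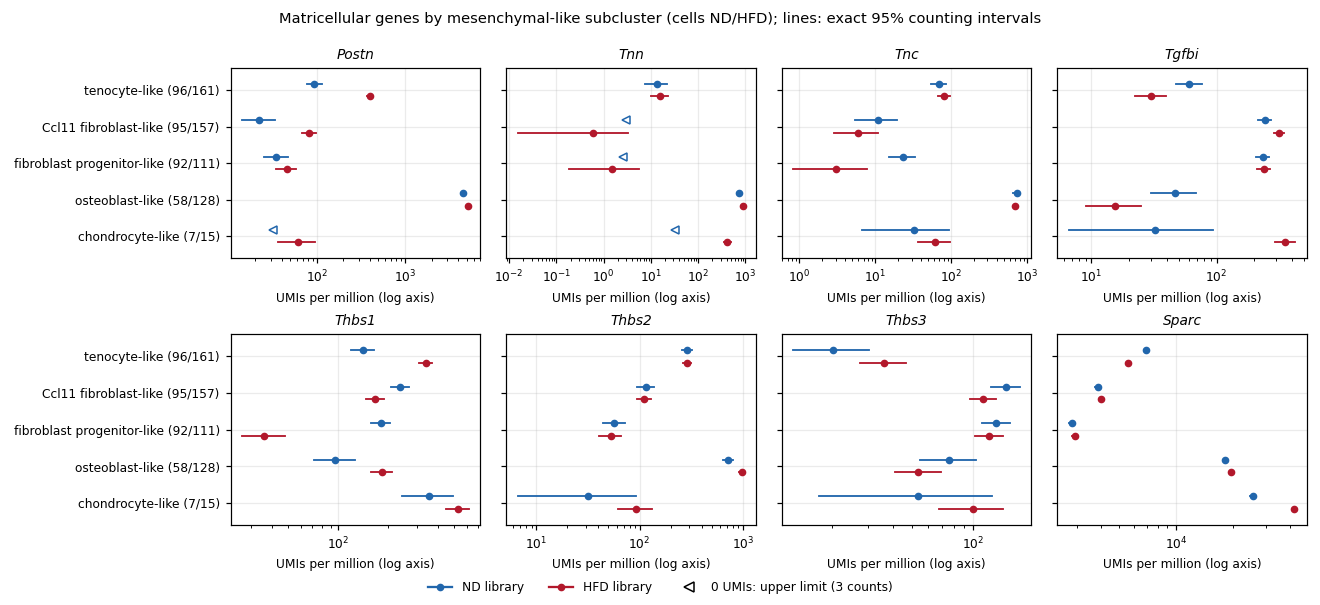
Level of each gene (UMIs per 1000000, log axis) in the 5 named mesenchymal-like subclusters of the ND (blue) and HFD (red) library, with exact 95% counting intervals as lines and triangles at the upper limit where no UMI was read. Among subclusters of over 50 cells per library, Postn, Tnn, Tnc, Thbs2 and Sparc are highest in osteoblast-like cells and Tgfbi and Thbs3 in Ccl11 fibroblast-like or fibroblast progenitor-like cells.

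Across mesenchymal-like cells, genes of the osteoblast-like pattern were often read in the same cells. Among thinned mesenchymal-like cells with a Postn UMI (52 in ND and 124 in HFD), 42.3% and 43.5% also had a Tnn UMI, against 0.562% and 1.66% of cells without. For Tnc the counts were 26 of 52 and 46 of 124 cells with Postn, against 3.65% and 4.43% of cells without. Thbs2 was read in 55.8% and 51.6% against 16.3% and 14.4%. Tgfbi ran the other way, with 1.92% and 4.03% of cells with Postn and 16.0% and 13.5% of cells without. The Thbs1 shares of the groups had overlapping intervals. These groups differ in subcluster, and within osteoblast-like cells alone the Tnn shares were 48.8% and 53.1% with Postn and 13.3% and 20% without, the latter from 15 and 30 cells. Within osteoblast-like cells the intervals of cells with and without Postn overlapped for Tnc in both libraries (55.8% and 43.8% with and 33.3% and 36.7% without), for Tnn and Thbs2 in ND, and for Tgfbi in both. In HFD they did not overlap for Tnn and Thbs2 (Thbs2 57.3% with and 26.7% without).

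Osteoblast-like cells were then divided into 3 groups of about equal size by the share of their UMIs from osteocalcin (Bglap and Bglap2), a late osteoblast product, and levels were taken without those UMIs. In HFD Postn was 6452 UPM (6199 to 6711) in the low group, 5189.9 UPM (4962 to 5425) in the middle and 3701 UPM (3496 to 3915) in the high group. Tnn (1327, 724 and 595 UPM) and Thbs2 (1395, 836 and 674 UPM) had the same order, with overlapping intervals in the middle and high groups. Without the cell with most Postn in each group the HFD levels were 5377, 4923 and 3413 UPM, and the intervals of the low (5140.1 to 5623) and middle groups (4694 to 5159.7) overlapped. In ND, with 19 or 20 cells a group, the order differed and Postn was 3579, 6749 and 3372 UPM. One ND cell held 394 of the 807 Postn UMIs of the low group, and without the top cells the ND levels were 2216, 5741 and 2968 UPM. ND Tnn (679, 1075 and 413 UPM) and Thbs2 (639, 1097 and 341 UPM) also peaked in the middle. Tnc was highest in the high group in ND (1095 UPM, 920.0 to 1294) and lowest there in HFD (interval 467 to 629 UPM). One cell held 76 of the 270 Tnc UMIs of the HFD middle group. Without the cell with most Tnc in each group, the HFD intervals of the middle (475 to 632 UPM) and high groups (408 to 564 UPM) overlapped. No Tgfbi UMI was read in the high group of either library or in the HFD middle group. In the ND low group 1 cell held 12 of 16 Tgfbi UMIs.

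**Figure D3:**
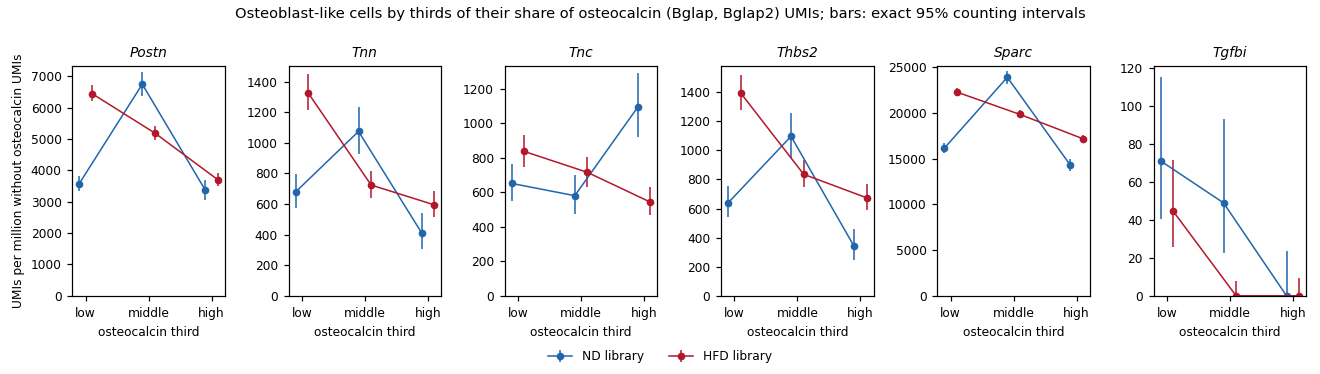
Levels of 6 genes (UMIs per 1000000 without osteocalcin UMIs, linear axes from 0) in osteoblast-like cells grouped by osteocalcin share, in the ND (blue) and HFD (red) library, with exact 95% counting intervals as bars. HFD Postn steps down from 6452 to 3701 UPM, while ND Postn is highest in the middle group at 6749 UPM.

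Sparc was read across skeletal and vascular cells. In mesenchymal-like cells it was at 6351 UPM (6280.1 to 6423) in ND and 8189 UPM (8122 to 8256) in HFD, with a UMI in 402 of 408 and 660 of 671 cells. Osteoblast-like cells had 18209 and 19659 UPM, tenocyte-like cells 6961 and 5551 UPM, Ccl11 fibroblast-like cells 3848 and 3994 UPM and fibroblast progenitor-like cells 2796 and 2915 UPM. In the few chondrocyte-like cells it was 25649.5 and 42292 UPM, of which 1 cell held 1206 of 2408 ND UMIs and 1 cell 3733 of 13216 HFD UMIs. Endothelial-like cells had 1843 and 1815 UPM and pericyte/smooth muscle-like cells 722 and 888 UPM.

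Tgfbi was read more in macrophage/monocyte-like cells than in any other named class, at 496 UPM (478 to 514) in ND and 470.2 UPM (452 to 489) in HFD, which held 48.9% and 44.5% of its UMIs. After thinning, 37.3% and 35.3% of these cells had a Tgfbi UMI, against 0.462% and 0.0679% of B cell-like cells. Unthinned, the shares of macrophage/monocyte-like cells were 92.2% and 91.6%, at median depths of 11639 and 11491 UMIs. The macrophage cluster led by the complement genes C1qa and C1qc had 1102 and 948 UPM, the cluster led by Ms4a6c and F13a1 349.8 and 369.8 UPM and that led by Ccl2 and Wfdc17 311 and 276 UPM. Neutrophil-like cells held a further 30.5% and 27.3%. Levels were 202 and 187 UPM in the larger cluster led by Retnlg and 326 and 311 UPM in that led by Acod1, against 42.6 and 33.5, 20.9 and 10.8 and 20.0 and 23.6 UPM in the 3 clusters led by Ltf, Camp and Ngp, genes of secondary granules. In mesenchymal-like cells Tgfbi was at 175 and 170.3 UPM, with 242 and 317 UPM in Ccl11 fibroblast-like, 233 and 238 UPM in fibroblast progenitor-like and 46.2 and 15.4 UPM in osteoblast-like cells.

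Thbs1 was read mostly in neutrophil-like cells, which held 81.2% and 82.3% of its UMIs. Its level there was 1303 UPM (1286 to 1321) in ND and 1619.6 UPM (1601 to 1639) in HFD. Among the neutrophil-like clusters it was 2329.5 and 2718 UPM in the Ltf-led and 2191 and 2409.6 UPM in the larger Retnlg-led cluster. The smaller Retnlg-led cluster, of 167 ND and 17 HFD cells, had 592 and 379 UPM, a log2 ratio of -0.61 (-1.27 to -0.074). The Acod1-led cluster had 1595 and 1642 UPM, and the 2 Camp-led clusters 699 and 1026 and 165 and 234 UPM. The Ms4a6c-led monocyte cluster had 629 and 718 UPM. In the C1qa-led cluster, where Tgfbi was highest, Thbs1 was read from 74 and 12 UMIs (log2 ratio -2.28). Pericyte/smooth muscle-like cells had 497 and 337 UPM and mesenchymal-like cells 233 and 235 UPM. The highest mesenchymal-like subcluster for Thbs1 (635 and 679.7 UPM) was an unnamed one of 33 cells per library, led by the neutrophil genes Stfa2l1 and Retnlg, in which 57.6% of cells had high doublet scores.

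**Figure D4:**
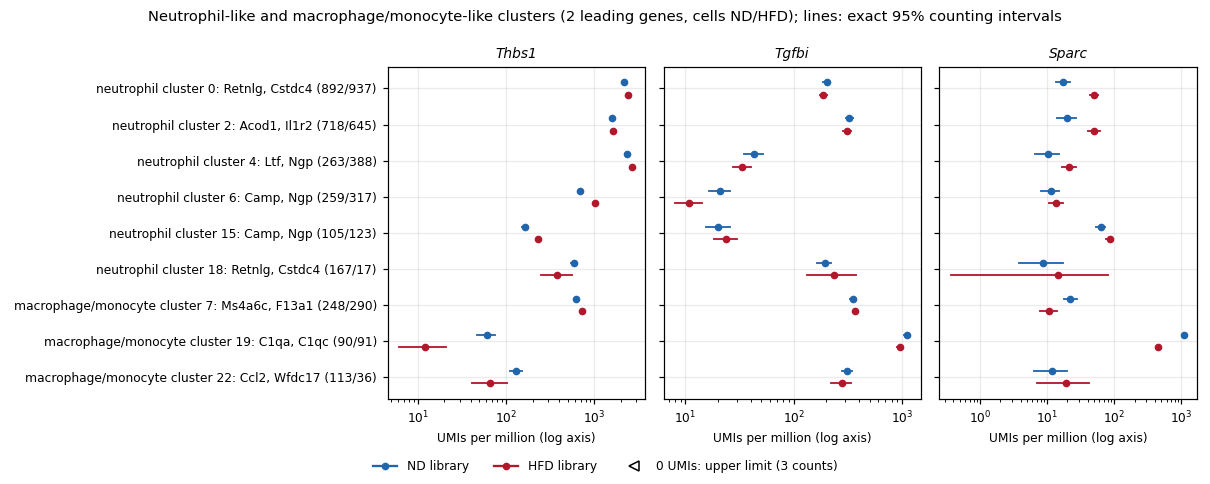
Thbs1, Tgfbi and Sparc levels (UMIs per 1000000, log axis) in the neutrophil-like and macrophage/monocyte-like clusters, named by leading genes, in the ND (blue) and HFD (red) library with exact 95% counting intervals. In the C1qa-led cluster Thbs1 is lowest and Tgfbi and Sparc are highest, with Sparc at 1076 and 452 UPM.

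The libraries were compared within mesenchymal-like cells as log2 ratios of HFD over ND, with 0.5 added to each count, and a gene of at least 20 UMIs was called when it passed 1.5-fold. Postn was higher in HFD, at 567 UPM (546 to 589) against 941 UPM (919 to 964), a log2 ratio of 0.73 (0.67 to 0.80). Tnn was higher at 87.8 against 166 UPM, a log2 ratio of 0.92 (0.76 to 1.09). Thus 2 of 8 genes were called higher and none lower, where 8.10% of all genes were called higher and 5.60% lower, and the median log2 ratio of all genes was 0.050. Thbs2 (0.41, 0.30 to 0.52) and Sparc (0.37, 0.35 to 0.39) were higher by less than 1.5-fold. Thbs3 was lower by less than that (-0.26, -0.44 to -0.076). By subcluster, Sparc was lower in HFD tenocyte-like cells (6961 and 5551 UPM) and higher in the other named ones. One HFD chondrocyte-like cell held 3733 of the 57494 HFD Sparc UMIs. The Sparc ratio was also smaller with equal subcluster weights, as given in the closing section. Intervals of Tnc (-0.018 to 0.28), Tgfbi (-0.17 to 0.087) and Thbs1 (-0.10 to 0.12) included 0.

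The Postn ratio differed with how cells were grouped. Over all kept cells it was 1.25, where 5 of 8 genes (Postn, Tnn, Tnc, Thbs2 and Sparc) were called higher and none lower against 11.1% and 4.38% of genes. These 5 genes were read mostly in mesenchymal-like cells. Such cells held 4773732 of 48106513 kept UMIs in ND and 7021222 of 49411888 in HFD, and the part of this difference was not tested. When the subclusters counted equally in ND and HFD, the mesenchymal-like ratio of 0.73 became 0.33, and within osteoblast-like cells it was 0.16 (0.093 to 0.23). Within tenocyte-like (2.09) and Ccl11 fibroblast-like cells (1.85) it was larger. The ND library had 58 osteoblast-like cells among 408 mesenchymal-like cells, and the HFD library 128 among 671, and the part of these numbers in the ratio was not tested. Tnn went from 1.45 over all cells to 0.46 with equal weights and 0.25 (0.080 to 0.42) in osteoblast-like cells. The Postn call in mesenchymal-like cells also ended with each cell weighted equally (0.54) or thinned (0.44). After thinning, a Postn UMI was found in 12.7% of ND (9.67 to 16.4) and 18.6% of HFD mesenchymal-like cells (15.7 to 21.8), and before it in 20.6% and 28.3%.

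**Figure D5:**
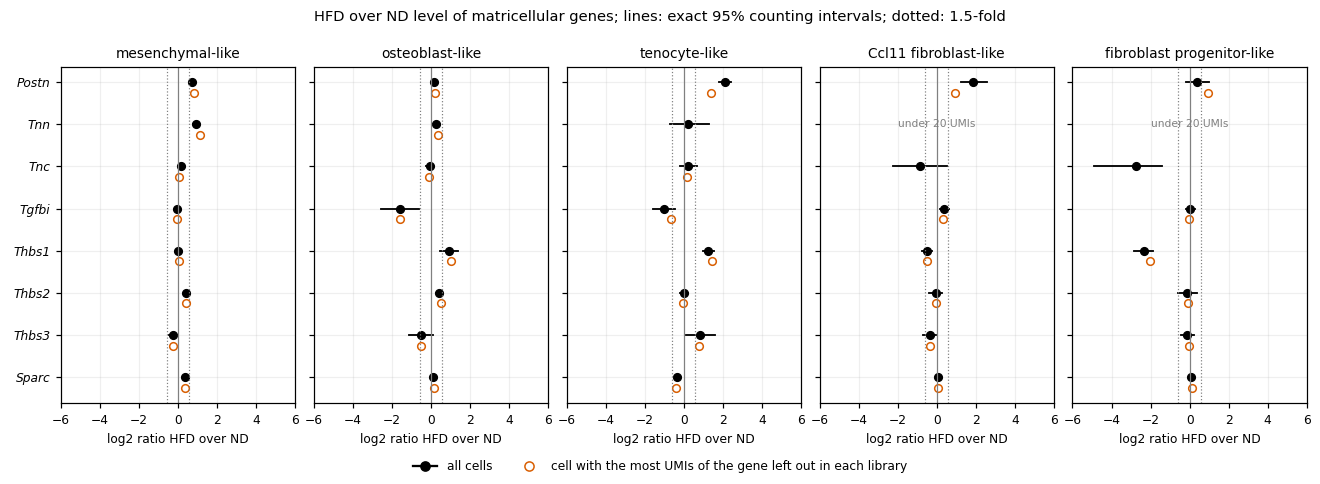
Log2 ratio of HFD over ND for the 8 genes in mesenchymal-like cells and 4 of their subclusters, with exact 95% counting intervals as lines, 1.5-fold as dotted lines and open circles for the value without the cell with most UMIs of the gene in each library, where at least 20 UMIs remained. Postn is at 0.16 in osteoblast-like and 2.09 in tenocyte-like cells, where it is 1.41 without those cells.

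Single cells weighed heavily on the ratios outside osteoblast-like cells. Postn in tenocyte-like cells had a log2 ratio of 2.09 (1.80 to 2.41), and 1 HFD cell held 377 of 671 UMIs. That cell carried 142 UMIs of Tnmd and 74 of Scx, genes of tenocytes, and none of Bglap. The ND cell with most Postn (31 UMIs) had 24 UMIs of Bglap, 43 of Bglap2 and 13 of Tnn. It had none of the osteoblast markers Ibsp and Alpl and none of Tnmd and Scx. Without these cells the levels were 67.7 and 181 UPM and the ratio 1.41 (1.05 to 1.80), with a UMI in 15 of 96 ND and 34 of 161 HFD cells before their removal. In Ccl11 fibroblast-like cells the Postn ratio of 1.85 became 0.91 (0.15 to 1.79) without the top cells, of which the HFD cell held 81 of 138 UMIs. All 27 ND Tnc UMIs of fibroblast progenitor-like cells came from 1 cell (ratio -2.77), and no ND UMI was left without it. Tnc in Ccl11 fibroblast-like cells (-0.84, -2.24 to 0.53) likewise had 10 of 11 ND UMIs in 1 cell, without which the direction turned.

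Thbs1 pointed in different directions among the subclusters, and those differences were not tested. In tenocyte-like cells it was 141 UPM (119.7 to 164) in ND and 337 UPM (309 to 366) in HFD, with a UMI in 43 of 96 and 96 of 161 cells and a log2 ratio of 1.26 (1.00 to 1.52). In osteoblast-like cells it was 96.1 UPM (71.8 to 126) in ND and 183 UPM (159 to 210.3) in HFD, a ratio of 0.92 (0.48 to 1.40). Fibroblast progenitor-like cells went from 181 to 35.8 UPM, a ratio of -2.32 (-2.82 to -1.88), although cells with a UMI were about as frequent (21 of 92 and 20 of 111). One ND cell held 92 of 213 UMIs there, and the ratio was -2.04 without the top cells and -0.92 at the coarser clustering resolution of 0.25. Tgfbi was lower in HFD osteoblast-like cells (-1.57, from 25 and 17 UMIs) and tenocyte-like cells (-1.01, from 69 and 50 UMIs). Both Tgfbi calls ended with high doublet scores removed (-0.11 and -0.23), and the tenocyte-like one turned with cells weighted equally (0.25). Thbs3 was higher in HFD tenocyte-like cells (0.81, 0.12 to 1.59).

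Over the subclusters, 1 of 8 genes was called higher and 1 lower in osteoblast-like cells, against 11.8% and 11.2% of all genes. In tenocyte-like cells 3 of 8 were higher and 1 lower, against 11.1% and 7.47%. Of 7 genes with enough UMIs, 1 was higher and 1 lower in Ccl11 fibroblast-like cells (11.4% and 7.38% of genes) and 2 were lower in fibroblast progenitor-like cells (9.81% higher and 7.07% lower among all genes). Summed neutrophil markers (10 genes) were 19298 and 9952 UPM in mesenchymal-like and 2463 and 967 UPM in fibroblast progenitor-like cells, with Mmp8 at 0 in HFD fibroblast progenitor-like cells. They were 12009 and 1919.9 UPM in tenocyte-like and 1611 and 7160.2 UPM in osteoblast-like cells, with Ly6g at 0 in HFD tenocyte-like and ND osteoblast-like cells and Cxcr2 at 0 in HFD osteoblast-like cells. Summed macrophage markers (11 genes) were 247 and 35.4 UPM in tenocyte-like and 353 and 33.6 UPM in osteoblast-like cells. Adgre1, Mrc1 and Ms4a6c were at 0 in HFD tenocyte-like cells and C1qc and Mrc1 in ND osteoblast-like cells. In HFD osteoblast-like cells Adgre1, C1qc, Mrc1 and Ccr2 were at 0. Of 16 dissociation and immediate-early response genes, 3 were lower and none higher in HFD mesenchymal-like cells (median -0.39) and 12 were lower in osteoblast-like cells (median -0.73). Other classes had this direction too, with 12 lower in neutrophil-like (median -0.94) and 12 in endothelial-like cells (-0.70). In macrophage/monocyte-like cells 10 were lower (-0.78), in B cell-like cells 10 (-0.76) and in pericyte/smooth muscle-like cells 4 (-0.38), and none was higher. The part of these genes in the ratios was not tested.

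Sparc was lower in HFD macrophage/monocyte-like cells, at 235 UPM (223 to 248) against 92.0 UPM (84.1 to 100.4), a log2 ratio of -1.35. In that class Postn was called higher from only 9 ND and 17 HFD UMIs, and 1 ND cell held 6 of the 9. Among all genes 4.30% were higher and 6.62% lower. The C1qa-led cluster held 1321 of 1414 ND and 454 of 504 HFD Sparc UMIs, in 48 of 90 and 34 of 91 cells. The highest cells held 152 and 65 UMIs, and the class ratio was -1.39 without them, -0.80 with cells weighted equally and -0.62 with cells thinned. The 8 mesenchymal markers summed in the C1qa-led cluster to 18.7 UPM in ND and 139 UPM in HFD. In the whole class they summed to 91.0 UPM in ND and 67.0 UPM in HFD, and their part in the Sparc ratio was not tested. Thbs1 (0.42) and Tgfbi (-0.076) were within 1.5-fold in the class. By cluster the Thbs1 ratio was 0.19 in the Ms4a6c-led (248 ND and 290 HFD cells), -2.28 in the C1qa-led and -0.95 (-1.71 to -0.32) in the Ccl2-led cluster (113 and 36 cells).

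Postn and Sparc were mostly higher in HFD in classes where few of their UMIs were read. Tgfbi and Thbs1 did not share this direction, with Tgfbi lower in B cell-like cells and Thbs1 lower in T cell-like and higher in NK cell-like cells. Postn was at 1.87 and 4.58 UPM in neutrophil-like (1.27, 0.67 to 1.95) and 1.44 and 3.81 UPM in B cell-like cells (1.36, 0.36 to 2.55). Sparc was at 23.4 and 40.7 UPM in neutrophil-like cells (0.80) and 9.03 and 24.9 UPM in B cell-like cells (1.46). The 8 mesenchymal markers summed to 139.7 and 229 UPM in neutrophil-like and 40.6 and 105 UPM in B cell-like cells, higher in HFD as well, and their part was not tested. With B cell-like levels subtracted, the Sparc ratio in neutrophil-like cells was 0.14. In neutrophil-like cells 4 of 7 genes with enough UMIs were called higher (Postn, Tnc, Thbs2 and Sparc) and none lower (3.93% and 8.83% of all genes). The Camp-led cluster of 105 ND and 123 HFD cells held 15 of 24 HFD Tnc and 20 of 33 HFD Thbs2 UMIs. The 8 mesenchymal markers summed there to 491 and 754 UPM. Among all HFD neutrophil-like cells, 1 cell held 9 of the Tnc UMIs and 1 cell 14 of the Thbs2 UMIs. In B cell-like cells 3 of 5 (Postn, Thbs2 and Sparc) were higher and 1, Tgfbi, was lower (3.90% and 6.23%). The Thbs2 call there came from 9 and 14 UMIs (0.61, -0.67 to 2.03) and held in 7 of 10 alternatives.

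In endothelial-like, T cell-like and NK cell-like cells Thbs1 ratios rested on few cells. Endothelial-like cells had 118 UPM (91.5 to 149) in ND and 207 UPM (181 to 235) in HFD (0.81, 0.42 to 1.22), with a UMI in 12 of 117 and 25 of 233 cells, and the ratio was 0.52 with high doublet scores removed. There 10.4% of all genes were higher and 9.44% lower. Hematopoietic progenitor-like cells, where Postn and Sparc were also called higher, were at 0.77 (4.73% and 5.67% of genes). A Thbs1 UMI was read there in 62 of 231 ND and 75 of 199 HFD cells. Without the cells with most UMIs the ratio was 1.01 (0.76 to 1.27). In hematopoietic progenitor-like cells Sparc turned from 0.89 to -0.51 at clustering resolution 1. T cell-like cells, where Sparc was called higher from 21 and 25 UMIs and in 7 of 10 alternatives, were at -1.15 (8.03% and 8.12%), with -2.27 and 1.10 in their clusters, which held 172 and 160 and 108 and 42 cells. NK cell-like cells were at 2.15 (10.2% and 8.01%) and at 1.26 (-0.49 to 3.50) without the cells with most UMIs.

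Genes most like each member were sought by Pearson correlation of log2(UPM + 10) over 35 clusters and subclusters, both libraries summed, among 11881 genes of at least 200 UMIs. The points share 2 libraries and the values are descriptions. Postn was most like Ccn4 (0.94), a Wnt-induced CCN protein, Col12a1 (0.93), a fibril-associated collagen, and Ptn (0.92), or pleiotrophin. Tnn was most like Ibsp (0.95), or bone sialoprotein, Col11a1 (0.94) and Pdzrn4 (0.92), and Tnc like Sgcd (0.95), Col16a1 (0.94) and Bglap2 (0.93). For Thbs2 they were Sgcd (0.98), Igsf10 (0.97) and Mmp2 (0.97), and for Thbs3 Htra3 (0.98), Vit (0.97) and Pdgfra (0.97). Sparc was most like Serpinh1 (0.98), the collagen chaperone, Ccn1 (0.97) and Ryk (0.96). The genes of myeloid cells had other partners, Sirpa (0.87), Ifi204 (0.87) and Hgsnat (0.85) for Tgfbi and Dhrs7 (0.89), Slc27a4 (0.87) and Chp1 (0.87) for Thbs1. Postn itself correlated with Tnc at 0.92, with Thbs2 at 0.89 and with Tnn at 0.81, but with its paralog Tgfbi at 0.18.

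Related genes were read beside the members in mesenchymal-like cells. Of 46 with at least 20 UMIs, 6 were called higher and 1 was called lower, against 8.10% and 5.60% of all genes, and their median log2 ratio was -0.0049. In the CCN family 2 of 5 were higher, Ccn2 (566 and 1094 UPM, 0.95), or connective tissue growth factor, and Ccn4 (14.5 and 29.2 UPM, 1.01), the gene most like Postn. In the SPARC family 2 of 5 were higher, Sparcl1 (289 and 483 UPM, 0.74) and Smoc2 (347 and 539 UPM, 0.63). The other thrombospondins, Comp (1327 and 1834 UPM, 0.47) and Thbs4 (475 and 582 UPM, 0.29), and tenascin X, Tnxb (-0.27), were within 1.5-fold. Of 14 integrin subunits and other receptors, Ptprz1, a receptor for tenascins and pleiotrophin, was higher (22.4 and 51.7 UPM), Cd36, a thrombospondin receptor, was higher from 7 and 24 UMIs with an interval that included 0, and Itga4 was lower from 47 and 30 UMIs. The integrin chains known to bind periostin, Itgav (-0.10), Itgb3 (-0.15) and Itgb5 (0.23), were within 1.5-fold. None of 5 fibulins, 5 matrix partners and 8 growth factors and regulators was called, with Col1a1 at 0.56, Scx at 0.57 and Tgfb1 at 0.17.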

How the data were processed

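The deposited counts, whole UMIs per gene and barcode with no normalization, had been produced by the authors with Cell Ranger 6.0.1 on mm10, as the submitters' processing notes give it. Median depth was 4610 (ND) and 4823.5 (HFD) UMIs per kept cell. Libraries were merged and clustered without the 8 genes in Seurat 5.3.0 (sctransform 0.4.2, R 4.3.3) by SCTransform with cell cycle regression, 30 principal components and Louvain resolution 0.5, which gave 29 clusters, and 8 subclusters of mesenchymal-like cells. Naming needed 3 detected markers. A cluster stayed unnamed if its leading genes held as many or more markers of another class, or if most of its cells had high doublet scores. The 340 ND and 299 HFD cells that stayed unnamed had enough markers and fell under these 2 further rules. These rebuilt cell types need not match the study's. Scrublet (scanpy 1.11.5) marked only 0.149% and 0.370% of cells at its automatic threshold, which was taken as a failure, so doublets were kept and the top 5% of scores removed as an alternative.

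Intervals are exact Poisson (levels), Clopper-Pearson (shares) and conditional binomial (ratios), and a count of 0 was taken to allow 3. The computation of ratios and intervals was tested on simulated Poisson counts and that of thinning on random counts. These counts lacked the uneven spread of UMIs over cells seen here, so the test checks the arithmetic only. Named genes were the 8 members, the 3 genes most like each, and genes of the related lists. Members and lists were chosen with earlier results of these data known, and single cells were singled out after their values were seen. Alternatives were doublet removal, resolutions 0.25 and 1, members kept in clustering, a minimum of 200 genes, cell means, thinning, subtraction of B cell-like levels, centring, other UMI minimums, 1 added to counts, equal subcluster weights and leaving out top cells.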

Additional observations from a re-analysis of the deposited data

Results flagged for a closer look

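For 3 of the 8 genes the libraries differed by more than 1.5-fold in opposite directions in cell types of at least 50 cells per library, with counting intervals that did not include 0. The differences between cell types were not tested. The Thbs1 log2 ratio (HFD over ND) was 1.26 in tenocyte-like, 0.92 in osteoblast-like, 0.81 in endothelial-like, 0.77 in hematopoietic progenitor-like and 2.15 in NK cell-like cells, against -2.32 in fibroblast progenitor-like and -1.15 in T cell-like cells. The T cell-like clusters differed in sign, at -2.27 (-3.25 to -1.47) in one of 172 ND and 160 HFD cells and 1.10 (0.088 to 2.07) in one of 108 and 42. The Sparc ratio was -1.35 in macrophage/monocyte-like cells against 0.80 in neutrophil-like, 1.46 in B cell-like and 0.89 in hematopoietic progenitor-like cells. The Tnc ratio was -2.77 in fibroblast progenitor-like cells, where 1 ND cell held every ND UMI, against 2.36 in neutrophil-like cells, from 4 and 24 UMIs. Of those 24 HFD UMIs, 15 lay in 1 Camp-led cluster and 9 in 1 cell.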

How the results depend on the processing

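No paired analysis was possible because each diet was 1 pooled library and no barcode was assigned to a mouse, and for the same reason no replicate could be left out. A value was taken as moved when it left the counting interval of the reported one, which is narrow for genes of many UMIs. Of 228 alternatives of the main values, 168 did not move. Of these, 8 ratios with no UMI minimum and 8 with a minimum of 100 UMIs could not move. A minimum only sets which ratios are listed. The percent of UMIs in mesenchymal-like cells, pooled over libraries, moved with thinning to 94.9 (Postn), 10.7 (Tgfbi), 95.7 (Tnn), 89.9 (Tnc), 2.79 (Thbs1), 94.6 (Thbs2), 87.4 (Thbs3) and 84.0 (Sparc) and with high doublet scores removed to 15.01 (Tgfbi), 3.78 (Thbs1), 97.3 (Thbs2) and 92.1 (Sparc). The log2 ratio of HFD over ND in mesenchymal-like cells moved with high doublet scores removed to 0.62 (Postn), 0.21 (Thbs1), 0.29 (Thbs2) and 0.47 (Sparc), with cells weighted equally to 0.54 (Postn), 0.38 (Thbs1) and 0.11 (Sparc), with thinning to 0.44 (Postn), 0.72 (Tnn), 0.31 (Tnc), 0.30 (Thbs1), 0.072 (Thbs2) and 0.15 (Sparc), with equal subcluster weights to 0.33 (Postn), 0.46 (Tnn), -0.21 (Tnc), 0.13 (Thbs1), 0.21 (Thbs2) and 0.060 (Sparc), without the cell with most UMIs (a setting chosen after seeing the data) to 0.83 (Postn), 1.12 (Tnn) and 0.33 (Sparc) and when centred on the median of all genes to 0.32 (Sparc). The log2 ratio of osteoblast-like over other mesenchymal-like cells, pooled over libraries, moved at resolution 0.25 to 5.23 (Postn), -2.49 (Tgfbi), -0.22 (Thbs3) and 1.65 (Sparc), with cells weighted equally to 5.81 (Postn), -3.43 (Tgfbi), 5.98 (Tnn), 2.33 (Thbs2) and 1.82 (Sparc), with thinning to 5.86 (Postn), -2.41 (Tgfbi), 6.40 (Tnn), 4.31 (Tnc), -0.34 (Thbs1), 2.21 (Thbs2), -1.20 (Thbs3) and 1.82 (Sparc), with B cell-like levels subtracted to 5.504 (Postn) and -0.91 (Thbs1), with high doublet scores removed to -3.49 (Tgfbi), -0.47 (Thbs1) and 1.72 (Sparc) and with the 8 genes kept in clustering to 1.82 (Sparc). With cells weighted equally or B cell-like levels subtracted, this last ratio used the mean of the ND and HFD levels, not pooled counts. The moves listed for it under those settings include that change of measure, whose part was not tested. Without thinning 20.6% of ND and 28.3% of HFD mesenchymal-like cells had a Postn UMI. The Postn call in mesenchymal-like cells held in 11 of 14 alternatives and the Tnn call in 13 of 14. Both counts include the UMI minimums, which could not change these calls. Among single ratios, Tgfbi in tenocyte-like cells turned to 0.25 with cells weighted equally, Sparc in hematopoietic progenitor-like cells to -0.51 at resolution 1, and Tnc turned to 1.60 in Ccl11 fibroblast-like and 2.14 in fibroblast progenitor-like cells without the cell with most UMIs, the latter from 0 ND UMIs and so set by the 0.5 added. The cause of these moves was not tested. Precision is limited by few UMIs for Tnn outside osteoblast-like cells and by few cells for chondrocyte-like cells.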
